A study of Mus musculus with 26 samples.

Results

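Gene expression was compared between gonads that carry the Fgf9 deletion named Δ93 and wild-type (WT) gonads of the mouse. The comparison used 9 of the 26 RNA-seq libraries of the study: 6 labelled XY, E13.5 (an embryonic day), Fgf9 Δ93, and 3 labelled XY, E13.5, WT. They are all the libraries of these 2 genotypes in the table used here. The gonads were dissected free of the mesonephros, the neighbouring embryonic kidney, and polyadenylated RNA was sequenced. Both groups share sex label, stage and tissue. The labels give neither the limits of the deletion, nor whether the embryos were homozygous, nor strain, litter or pooling. The Δ93 libraries are labelled as biological replicates and the WT libraries only as replicates, so the p-values measure spread between libraries as labelled. The submitters' processing notes name a counting tool for the WT libraries and none for the Δ93 libraries, so a difference in processing, if there was one, cannot be told apart from genotype. The table also holds Δ306 (3 libraries), Δ104 (4) and Δ225 (6), which entered the same fit. The spread behind each p-value is therefore estimated from all 22 libraries. Otherwise these deletions serve below only to show where Δ93 differs from them.

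Fgf9 encodes a secreted fibroblast growth factor made in the early testis. In an XY gonad the Y-linked gene Sry switches on Sox9, Sox9 and FGF9 sustain each other, and supporting cells become Sertoli cells, which instruct steroid-producing Leydig cells and hold germ cells out of meiosis. In an XX gonad Rspo1 and Wnt4 signal through β-catenin, and the supporting cells become pre-granulosa cells that express Foxl2 and Fst, while germ cells respond to retinoic acid and enter meiosis.

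Total counts were 38287264 to 53392393 in the WT libraries and 20641724 to 46914704 in the Δ93 libraries. Levels are given as CPM, counts relative to library sizes scaled by the trimmed mean of M-values (TMM). Across genes, log2 CPM of 2 Δ93 libraries correlated with r of 0.93 to 0.99 (15 pairs), of 2 WT libraries with 0.96 to 0.99 (3 pairs) and of a WT and a Δ93 library with 0.91 to 0.97 (18 pairs), a description over genes that share libraries. Genes that mark the gonad were present in all 9 libraries. Nr5a1, a nuclear receptor of gonadal somatic cells, was at 381, 391 and 355 CPM in WT and 162 to 289.9 CPM with a median of 225.2 in Δ93, and Gata4, a transcription factor of the same cells, at 416, 437 and 373 CPM and 274 to 438 CPM with a median of 366. Neither was called, at log2 fold changes of −0.75 (adjusted p 0.109) and −0.19 (adjusted p 0.644).

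Y-linked transcripts were few in some Δ93 libraries, although all 6 are labelled XY. The helicase gene Ddx3y had 554, 435 and 1430 counts in the WT libraries and 80, 93, 44, 0, 2 and 48 in Δ93 replicates 1 to 6. The histone demethylase gene Uty had 683, 744 and 839 counts in WT and 40, 34, 11, 0, 0 and 27 in Δ93. Every Δ93 library had fewer counts of both genes than every WT library, and the libraries labelled Δ93 replicates 4 and 5 had almost none. The Y-linked list as a whole separated the groups less. Of its 7 genes tested, 4 were called lower, where 6.84% of all genes were, and for 2 the groups did not overlap. Relative to the WT mean the list's median was −2.24 log2 units in WT replicate 1, below −1.43 and −1.51 in Δ93 replicates 1 and 2. Over the 8 Y-linked genes of the list the summed level was 33.6, 64.6 and 117.8 CPM in WT and 16.1, 14.3, 2.60, 0.451, 0.776 and 6.30 CPM in Δ93 replicates 1 to 6. Low sums also occurred in the other deletions. In replicate order they were 30.8, 17.2 and 0.353 CPM in Δ306 and 5.36, 7.76, 2.38 and 52.4 CPM in Δ104. In Δ225 they were 21.9, 78.2, 24.9, 0.596, 23.3 and 42.5 CPM. Xist, the RNA of the inactive X chromosome, had 21, 7, 6, 242, 9 and 3 counts in Δ93 and 7, 3 and 7 in WT, so replicate 4 held most of it and replicate 1 the next most. Ddx3y (log2 fold change −3.94, SE 1.16, adjusted p 0.0273) and Uty (log2 fold change −4.99, SE 1.21, adjusted p 0.00948) were called lower, Ddx3y not without WT replicate 1 or 3 or Δ93 replicate 3 (adjusted p as high as 0.132). Replicate 5, with almost no Ddx3y and Uty, had 9 Xist counts, close to WT. Whether the sex labels are right was not tested. Because of the Y-linked counts, counts over the lists are also given without Δ93 replicates 4 and 5.

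**Figure D1:**
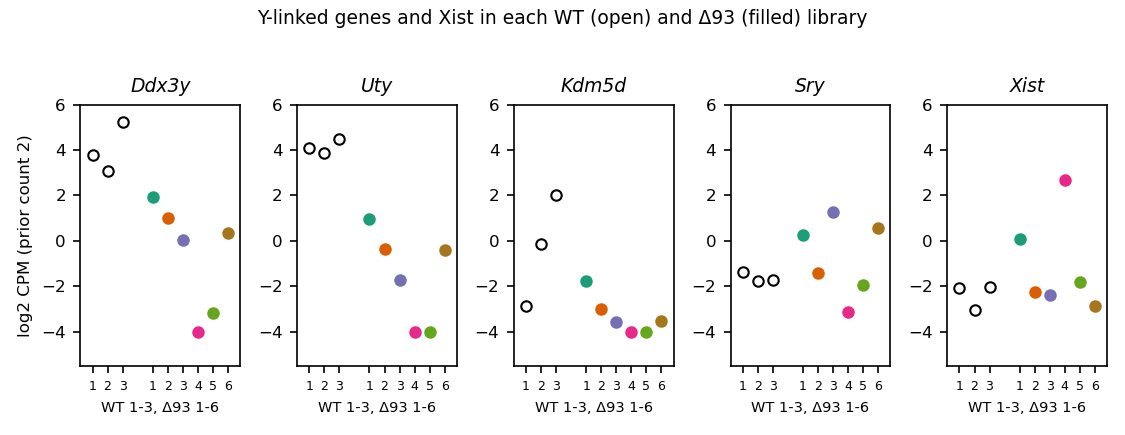
Log2 CPM (prior count 2) of Y-linked Ddx3y, Uty, Kdm5d and Sry and of Xist (vertical axis) in WT replicates 1 to 3 (open points) and Δ93 replicates 1 to 6 (filled points), 1 point per library. Δ93 replicates 4 and 5 lie lowest for Ddx3y and Uty, and Δ93 replicate 4 lies highest for Xist.

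The WT libraries differed among themselves in germ-cell transcripts. Ddx4, an RNA helicase found in germ cells, was at 4.27, 81.3 and 139 CPM in WT replicates 1 to 3 and 136 to 232 CPM with a median of 169 in Δ93, and the RNA-binding gene Dazl at 4.3, 188 and 284 CPM and 305 to 503 CPM with a median of 430.4. WT replicate 1 thus had few germ-cell transcripts. The median of the pan-germ-cell list relative to the WT mean was −3.31, 1.45 and 1.88 log2 units in WT replicates 1 to 3. Results for genes of meiosis are therefore also given with the fit that leaves this library out. For the other germ-cell genes that fit is not reported here gene by gene.

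Of 22941 genes tested, 3229 were called at an adjusted p under 0.05 by edgeR's quasi-likelihood test, 14.1% of all. Higher in Δ93 were 1659 genes (7.23%) and lower were 1570 (6.84%). These 2 shares are the background of the counts over gene lists below. The called genes were also described library by library. They were chosen by a test on these same libraries, so their separation is not independent evidence. Of the genes called higher, 1518 lay above all 3 WT libraries in all 6 Δ93 libraries and 134 in 5 of 6. Of those called lower, 1460 lay below all WT libraries in all 6 and 67 in 5 of 6. Over all genes tested, whether called or not, the 2 groups did not overlap at 12.1% with Δ93 higher and 12.5% with Δ93 lower. Replicates 1 and 6 were closest to WT among the genes called higher, with medians of 1.11 and 1.10 log2 units above the WT mean, against 1.53, 1.28, 1.62 and 1.55 in replicates 2 to 5. Among the genes called lower, replicate 6 was closest, at −0.95, and the others lay between −1.38 and −1.12. The counts depended on the libraries used. Without replicates 4 and 5, 839 genes were called higher (3.77% of 22233) and 1141 lower (5.13%), and 1886 genes were called in both fits. Leaving out WT replicate 1, 2 or 3 gave 1486, 1591 and 1813 calls, and leaving out 1 Δ93 library gave 2342 to 3572. With the 9 libraries fitted alone, 4162 of 20493 genes tested were called.

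**Figure D2:**
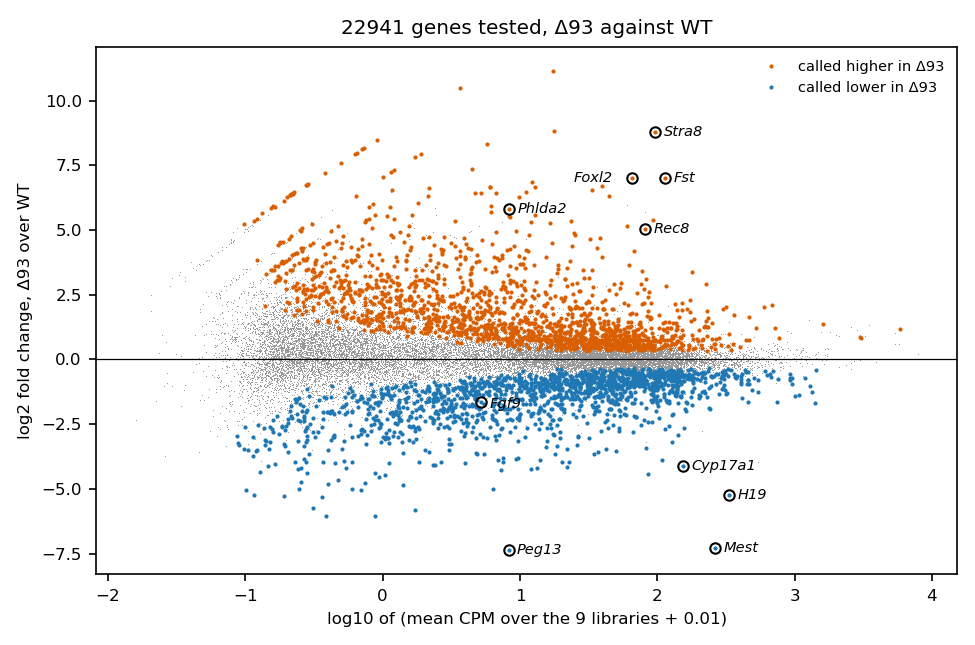
Log2 fold change of Δ93 over WT (vertical axis) against log10 of the mean CPM over the 9 libraries plus 0.01 (horizontal axis) for the 22941 genes tested, with genes called higher in orange and genes called lower in blue. Mest and Peg13 lie lowest among the genes marked, at −7.28 and −7.36, and Foxl2, Fst and Stra8 lie at 7.01 or more.

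Fgf9 itself (ENSMUSG00000021974, chromosome 14, 58070547 to 58112720, plus strand, GENCODE annotation of GRCm38) fell. It was at 9.85, 9.21 and 9.55 CPM in WT and at 2.92, 2.3, 2.62, 4.75, 2.78 and 3.09 CPM in Δ93 replicates 1 to 6. Each Δ93 library lay below each WT library, and replicate 4 was the highest of the 6 (log2 fold change −1.63, SE 0.36, adjusted p 0.00532). The call held in each of the 9 fits that left out 1 library, and without replicates 4 and 5 the change was −1.86 (adjusted p 0.011). Of the 16 protein-coding genes that start within 1 Mb of the start of Fgf9, Fgf9 included, 13 were tested. Cryl1 was called higher and Gjb2 and Fgf9 lower, where 7.23% and 6.84% of all genes were called. Of these 3 calls, that of Fgf9 alone held in all 9 fits that left out 1 library. The list's median change was 0.16, against 0.06 over all genes tested. Gjb2, which encodes connexin 26, was at 22.3, 19.2 and 20.8 CPM in WT and 4.72, 0.442, 4.23, 1.86, 0.401 and 8.93 CPM in Δ93 (log2 fold change −2.60, SE 0.82, adjusted p 0.0372). That call was lost without any single WT library or without Δ93 replicate 2, 3, 4 or 5, with adjusted p as high as 0.0978. Cryl1, which encodes a crystallin-like dehydrogenase, was called higher (log2 change 0.91, adjusted p 0.0272), and replicate 1 with 24.5 CPM lay within the WT range of 24.3 to 27.9 CPM. The Cryl1 call was lost without any single WT library or without Δ93 replicate 2, with adjusted p as high as 0.136. Neighbours that did not pass the test included Ift88 (log2 change 0.43, adjusted p 0.0881), Lats2 (log2 change −0.25, adjusted p 0.26) and Zdhhc20 (log2 change 0.16, adjusted p 0.465).

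Sertoli-cell genes were lower, unevenly across libraries. Of 20 Sertoli genes, all tested, 10 were called lower and 0 higher at the test above, where 6.84% of all genes were called lower. The median change was −2.20 against 0.06 over all genes. In 17 of the 20 genes the Δ93 and WT libraries did not overlap, where 12.5% of all genes were separated in this direction. Relative to the WT mean the list's median was −2.21, −4.59, −1.97, −3.90, −3.94 and −1.12 log2 units in Δ93 replicates 1 to 6, and 0.04, 0.03 and −0.05 in the WT libraries. Replicate 6 held the highest level of 19 of the 20 genes, and the lowest level of a gene was in replicate 2, 4 or 5 for 7, 6 and 6 genes. Markers of Sertoli cells therefore spread over a wide range inside Δ93. The median SD of log2 CPM over the list was 1.52 in Δ93 and 0.17 in WT, where all genes tested had 0.37 and 0.28. In bulk RNA, fewer cells of a type and less RNA per cell cannot be told apart.

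Amh, the Sertoli-cell hormone that makes the Müllerian ducts regress, was one of the genes with a wide spread. It was at 1685, 1263 and 1397 CPM in WT and at 58.5, 1.71, 102, 2.49, 1.18 and 384 CPM in Δ93 replicates 1 to 6. All 6 libraries lay below WT, replicates 2, 4 and 5 close to 0 and replicate 6 at the top. The difference was not called (log2 fold change −3.98, SE 1.47, adjusted p 0.0751). Sox9, the transcription factor that directs Sertoli fate, was at 98.7, 101 and 104.3 CPM in WT and 43.9, 9.69, 46.1, 11.2, 11.1 and 74.1 CPM in Δ93. Again no Δ93 library reached WT, replicates 2, 4 and 5 were lowest, and the change was not called (log2 fold change −1.63, SE 0.60, adjusted p 0.0742). The same order of libraries was seen in Ptgds, the prostaglandin D2 synthase, at 129, 123 and 132 CPM and 10.8, 0.527, 16, 1.49, 0.827 and 37.4 CPM. Ptgds was called lower (log2 fold change −3.52, SE 1.03, adjusted p 0.027), a call not kept without any single WT library or without Δ93 replicate 4 (adjusted p as high as 0.0683), and without replicates 4 and 5 the change was −3.04 (adjusted p 0.0811).

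Vnn1 and Mro were called lower. Vnn1, a pantetheinase, was at 27.8, 33.9 and 36.9 CPM in WT and 5.75, 7.84, 8.37, 8.57, 7.14 and 14.8 CPM in Δ93. Mro, named for male-specific expression in the gonad, was at 81.4, 68.6 and 59.3 CPM and 16.1, 12.1, 16.2, 15.3, 16.5 and 29.6 CPM. For both genes the 6 Δ93 libraries lay below the 3 WT libraries and replicate 6 was the highest of the 6, with log2 fold changes of −1.91 for Vnn1 (adjusted p 0.00135) and −1.98 for Mro (adjusted p 0.003). Sox8, a close relative of Sox9, was at 36.6, 34.7 and 35.5 CPM and 1.93 to 15.1 CPM with a median of 4.16, and Cyp26b1, the enzyme that degrades retinoic acid in the testis, at 342, 343 and 266 CPM and 7.27 to 99.5 CPM with a median of 25.5. Both were lower, at log2 fold changes of −2.66 (adjusted p 0.0067) and −3.19 (adjusted p 0.0112), with replicate 6 the highest and replicates 2, 4 and 5 the lowest. Vnn1, Mro, Sox8, Cyp26b1 and the scaffold gene Nedd9 (log2 change −1.53, adjusted p 0.0041) were called in all 9 fits that left out 1 library and also without replicates 4 and 5. Without WT replicate 1 or without WT replicate 2, 5 of the 10 called genes of the list were called. The other 5 (Ptgds, Inhbb, Hsd17b3, Gdnf, Erbb4) were not called without WT replicate 1, and without Δ93 replicates 4 and 5 none of the 5 was called, at adjusted p of 0.0552 to 0.124. Dmrt1, a transcription factor of Sertoli and germ cells, was at 31.2, 64.7 and 75 CPM in WT and 22.5 to 75.4 CPM with a median of 52.5 in Δ93, and the tight-junction gene Cldn11 at 36.5, 23 and 27.1 CPM and 13.6 to 33.3 CPM with a median of 16.9. Both overlapped WT and were not called (adjusted p 0.697 and 0.355).

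**Figure D3:**
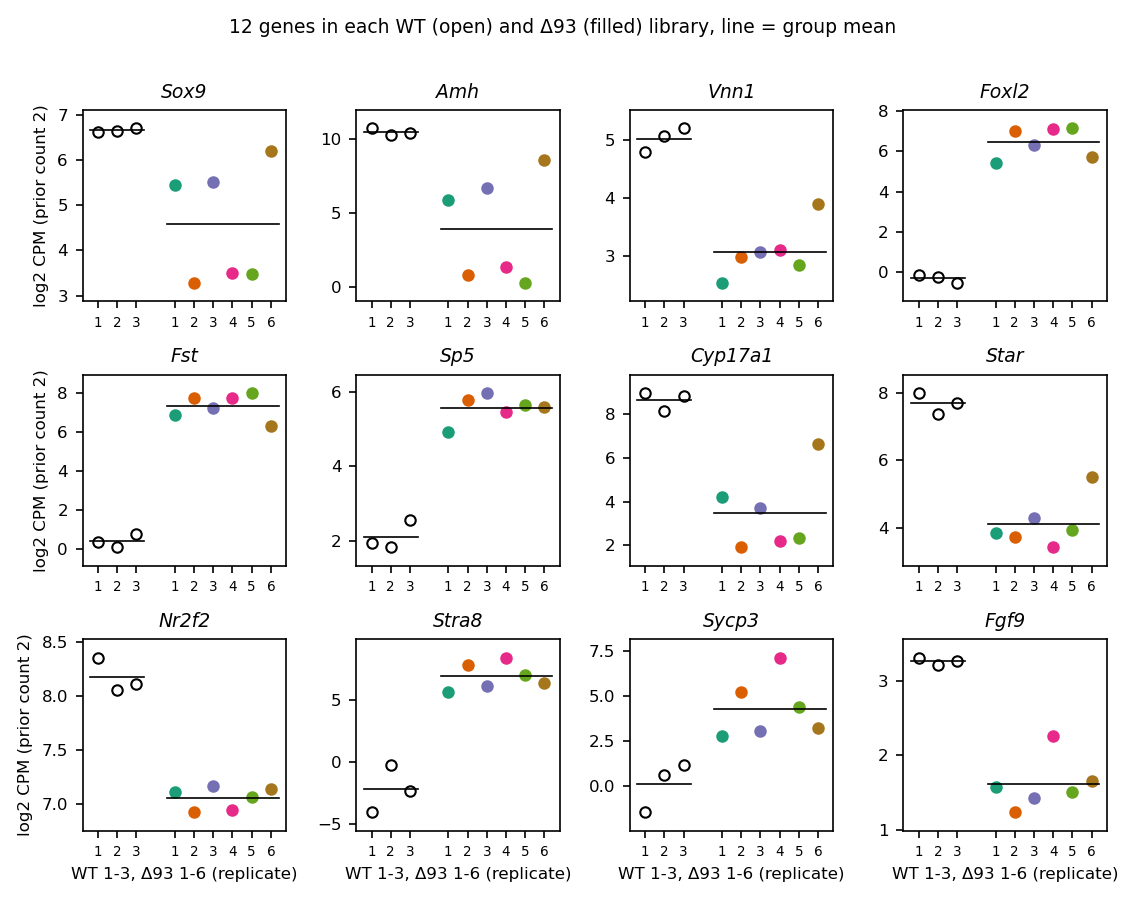
Log2 CPM (prior count 2, vertical axes) of 12 genes in WT replicates 1 to 3 (open points) and Δ93 replicates 1 to 6 (filled points), with a line at each group's mean. Sox9, Amh and Cyp17a1 spread widely over the Δ93 libraries with replicate 6 highest, whereas Foxl2, Fst, Sp5 and Nr2f2 lie together on 1 side of WT.

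Pre-granulosa genes rose in every Δ93 library. All 12 genes of the list were called higher, where 7.23% of all genes were, with no overlap between the groups for any of them (12.1% of all genes did not overlap in this direction). The median change was 2.72. Relative to the WT mean the list's median was 2.58, 2.89, 2.78, 2.89, 3.21 and 2.13 log2 units in Δ93 replicates 1 to 6, so replicate 6 was the lowest and replicate 5 the highest. Foxl2, the forkhead factor that defines granulosa fate, was at 0.829, 0.777 and 0.633 CPM in WT and 42.5, 129.9, 79.9, 137, 141 and 52 CPM in Δ93 (log2 fold change 7.01, SE 1.15, adjusted p 0.000992). Fst, which encodes the activin antagonist follistatin, was at 1.26, 1.01 and 1.69 CPM and 117, 210.1, 151, 214, 251 and 79.5 CPM (log2 fold change 7.02, SE 1.20, adjusted p 0.00121). Both genes were low in WT and abundant in each Δ93 library, lowest in replicates 1 and 6.

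The transcription factors Irx3 (log2 change 5.38, adjusted p 0.0015) and Msx1 (log2 change 4.32, adjusted p 0.000913) rose as well, and so did Runx1 (log2 change 3.13, adjusted p 0.00369). Irx3 was at 4.52, 2.25 and 3.11 CPM in WT and 68.4 to 197 CPM with a median of 149 in Δ93. Cdkn1b, a cell-cycle inhibitor that accumulates in pre-granulosa cells, was at 62.1, 59.2 and 60.6 CPM and 132 to 269.8 CPM with a median of 182. Its 6 Δ93 libraries all lay above WT (log2 change 1.63, adjusted p 0.00147). Without replicates 4 and 5 all 12 genes were again called higher, where 3.77% of genes were, with a median change of 2.49. In the fits that left out 1 library, 10 to 12 of the 12 were called. Bmp2 was lost without any WT library and Lef1 without WT replicate 1 or 2, at adjusted p as high as 0.0669 and 0.0836.

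**Figure D4:**
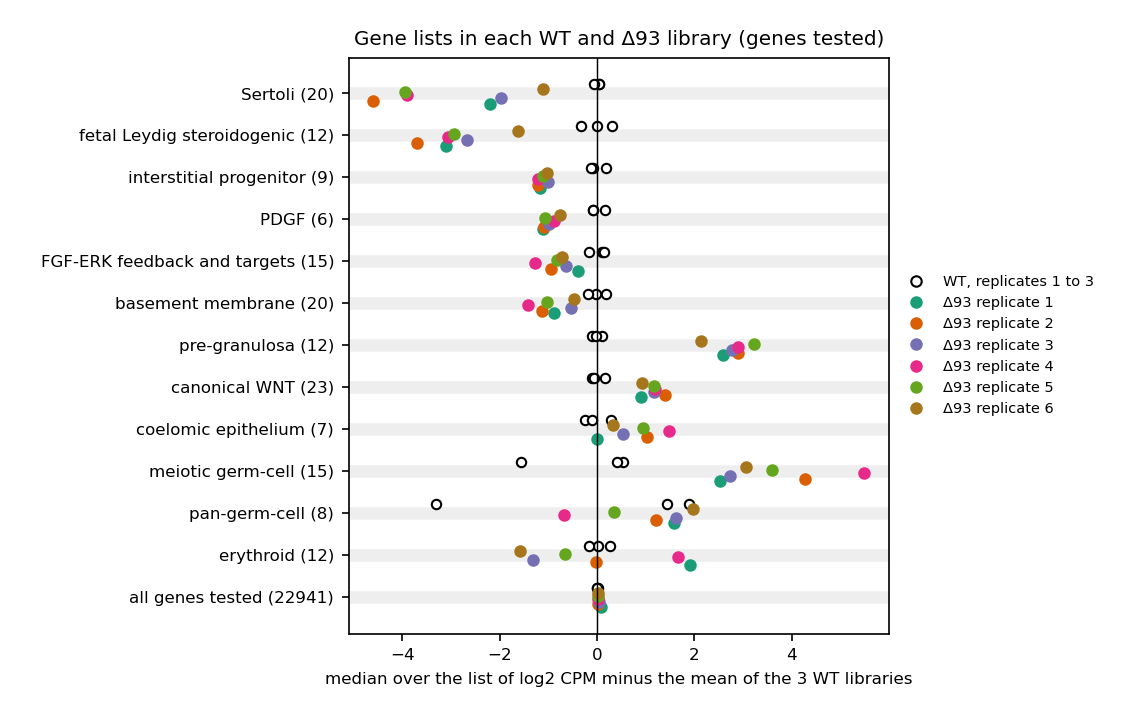
For each gene list (rows, number of genes tested in parentheses), the median over its genes of log2 CPM minus the mean of the 3 WT libraries (horizontal axis), for each WT library (open points) and each Δ93 library (coloured points). The Sertoli medians run from −4.59 to −1.12 in Δ93, the pre-granulosa medians from 2.13 to 3.21, and those over all genes tested lie near 0.

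The canonical WNT pathway, in which secreted WNT and R-spondin proteins stabilise β-catenin, had more genes called higher than lower. Of 23 genes, 12 were called higher and 2 lower, where 7.23% and 6.84% of all genes were, with a median of 1.11. Of these 23, 4 (Wnt4, Rspo1, Axin2 and Lef1) also belong to the pre-granulosa list. Among ligands, Wnt4 was at 70.9, 30 and 41.4 CPM in WT and 142, 256, 237, 289.8, 338 and 149.6 CPM in Δ93 (log2 fold change 2.31, SE 0.45, adjusted p 0.00261), and Rspo1 at 19.4, 15.9 and 15.7 CPM and 62.1, 86, 76.9, 95.4, 94.8 and 51.7 CPM (log2 fold change 2.19, SE 0.37, adjusted p 0.00119). Neither overlapped between groups. Wnt9a (log2 change 2.46, adjusted p 0.00635) and Wnt2b (log2 change 1.93, adjusted p 0.00936) rose too, while Wnt6 did not pass the test (log2 change 0.03, adjusted p 0.979). Wnt2b was not called without WT replicate 2 or 3 (adjusted p as high as 0.061). Wnt11 was not called here but was lower in the authors' deposited DESeq2 results (log2 change −1.03, adjusted p 0.044). In those results Rspo3 (log2 change −0.95, adjusted p 0.127) and Rspo2 (log2 change 1.65, adjusted p 0.145) did not pass.

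Some genes known as direct readouts of the pathway were among the called ones. Other members of the list did not pass in the authors' deposited DESeq2 results. These were Tcf7 (log2 change 0.35, adjusted p 0.267), Znrf3 (log2 change 0.31, adjusted p 0.121) and Notum (log2 change 0.73, adjusted p 0.517), among others. Sp5, a transcription factor induced by β-catenin, was at 3.79, 3.5 and 5.8 CPM in WT and 30.4, 54.8, 62, 44.1, 49.7 and 47.6 CPM in Δ93. All 6 libraries lay above WT, at log2 fold change 3.46, SE 0.54, adjusted p 0.000752. Axin2, a feedback inhibitor, was at 36.8, 32.4 and 35.7 CPM and 79.3 to 114 CPM with a median of 93.5 (log2 change 1.45, adjusted p 0.00262), and Rnf43, which removes WNT receptors, at 6.0, 1.98 and 2.98 CPM and 15.7 to 27.6 CPM with a median of 20.7 (log2 change 2.54, adjusted p 0.00428). The R-spondin receptor Lgr5 was called higher (log2 change 1.58, adjusted p 0.0288), a call not kept without any single WT library or without Δ93 replicate 2 or 5 (adjusted p as high as 0.111). Ctnnb1, which encodes β-catenin, was at 879.6, 926 and 901 CPM and 590.0 to 832 CPM with a median of 746 and was not called (log2 change −0.32, adjusted p 0.309). The secreted antagonists Dkk1 and Sfrp1 fell. Wif1, of the same list, did not pass in the authors' deposited DESeq2 results (log2 change −0.12, adjusted p 0.914). Dkk1 was at 16.5, 14.1 and 18 CPM in WT and 0.501 to 5.26 CPM with a median of 1.25 in Δ93 (log2 change −3.11, adjusted p 0.00487). Sfrp1 (log2 change −0.68, adjusted p 0.0301) was not called without any single WT library or without Δ93 replicate 1, 3 or 6 (adjusted p as high as 0.157). In the 9 fits that left out 1 library, 8 to 13 of the 14 called WNT genes were called, the fewest without WT replicate 2 or 3. Without Δ93 replicates 4 and 5, 9 were called higher and 2 lower.

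Regulators that act before or at sex determination were mostly not called. Of 16 genes, 4 were called higher and 0 lower, where 7.23% and 6.84% of all genes were, and the median was −0.11. Kdm3a, a histone demethylase that acts on the Sry locus, was at 116, 114 and 109 CPM in WT and 187 to 301 CPM with a median of 247 in Δ93 (log2 fold change 1.12, SE 0.26, adjusted p 0.0076). Emx2, a homeobox gene of the gonadal epithelium, was at 59, 58.1 and 53.6 CPM and 118 to 198 CPM with a median of 155 (log2 fold change 1.44, SE 0.31, adjusted p 0.00499). The groups did not overlap for either gene. Without WT replicate 2 or 3, 2 of the 4 calls were kept. Nr0b1, the X-linked gene for DAX1, rose (log2 change 1.17, adjusted p 0.0105) but not without WT replicate 2 or 3 (adjusted p as high as 0.0722). Wt1, which encodes a zinc-finger factor, rose (log2 change 0.59, adjusted p 0.0341), a call not kept without any single WT library or without Δ93 replicate 2, 3 or 5 (adjusted p as high as 0.166). Sry was at 0.327, 0.233 and 0.237 CPM in WT and 1.13, 0.316, 2.32, 0.0531, 0.20 and 1.4 CPM in Δ93 replicates 1 to 6. It exceeded every WT library in replicates 1, 3 and 6 and lay below every WT library in replicates 4 and 5. The difference was not called (log2 fold change 1.75, SE 0.97, adjusted p 0.241).

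FGF signalling runs from secreted ligands through 4 tyrosine kinase receptors to the ERK kinases, which induce their own feedback inhibitors. Of 28 genes for ligands and receptors, 23 were tested, 10 were called lower and 2 higher, where 6.84% and 7.23% of all genes were, and the median was −0.64. Of 15 feedback and target genes, 8 were called lower and 0 higher, with a median of −0.89. Among ligands other than Fgf9, Fgf10 was at 6.78, 7.34 and 6.17 CPM in WT and 0.652 to 2.59 CPM with a median of 1.46 in Δ93 (log2 fold change −2.14, SE 0.42, adjusted p 0.00263), and Fgf18 at 7.91, 11.1 and 10.7 CPM and 3.43 to 7.14 CPM with a median of 4.89 (log2 fold change −0.97, SE 0.25, adjusted p 0.0126). Both were below WT in all 6 libraries, and Fgf18 was not called without WT replicate 2 or 3 (adjusted p as high as 0.0663). The receptors moved in opposite directions. Fgfr1 was at 167, 157 and 159 CPM and 92.6 to 109 CPM with a median of 97.6 (log2 fold change −0.69, SE 0.15, adjusted p 0.00472), whereas Fgfr2, the receptor through which FGF9 acts in the XY gonad, was at 101, 76.3 and 74.1 CPM and 142 to 234 CPM with a median of 181 (log2 fold change 1.13, SE 0.24, adjusted p 0.00413). Neither receptor's groups overlapped. Of the 12 called ligand and receptor genes, 6 were called without WT replicate 3 and 7 without WT replicate 1 or 2. Fgfr3 (log2 change 0.61, adjusted p 0.162) and Fgfr4 (log2 change −0.64, adjusted p 0.249) were not called.

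Dusp6, a phosphatase that switches ERK off and a common readout of FGF signalling, was at 61.2, 73.9 and 71.6 CPM in WT and 24.9, 20.1, 31.1, 20.7, 20.3 and 37.1 CPM in Δ93 (log2 fold change −1.42, SE 0.27, adjusted p 0.00237). Spry1 and Spry4, which block the receptor pathway, were at 40.3, 37 and 45.8 and 32.4, 40.5 and 36.3 CPM in WT and 14.7 to 21.2 CPM with a median of 15.2 and 7.77 to 21.6 CPM with a median of 13.2 in Δ93. Every Δ93 library lay below every WT library for the 3 genes, with log2 fold changes of −1.30 for Spry1 (adjusted p 0.0014) and −1.35 for Spry4 (adjusted p 0.00626). The ERK-induced factors Etv1 (log2 change −1.62, adjusted p 0.00566) and Egr1 (log2 change −0.96, adjusted p 0.00913) fell, while Etv4 (log2 change −0.89, adjusted p 0.202) and Etv5 (log2 change −1.02, adjusted p 0.0837) overlapped between groups and were not called. Without Δ93 replicates 4 and 5 the same number of feedback and target genes, 8, was called lower, where 5.13% of all genes were. In the fits that left out 1 library, 6 to 8 of the 8 were called.

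Genes of fetal Leydig cells, which make androgens, were lower. Of 12, 8 were called lower and 0 higher, where 6.84% and 7.23% of all genes were, with a median of −2.78. For 10 of the 12 the groups did not overlap, where 12.5% of all genes were separated in this direction. Star, which carries cholesterol into mitochondria, was at 253, 165 and 209 CPM in WT and 14.2, 13.1, 19.4, 10.6, 15.2 and 44.9 CPM in Δ93 (log2 fold change −3.42, SE 0.59, adjusted p 0.00121). Cyp17a1, an enzyme needed for androgen synthesis, was at 501, 287 and 461 CPM and 18.2, 3.69, 12.8, 4.46, 5.06 and 101 CPM (log2 fold change −4.11, SE 1.03, adjusted p 0.0116). Replicate 6 kept the most of both, and every Δ93 library lay below WT. Cyp11a1, which cleaves the cholesterol side chain, was at 392, 177 and 294 CPM and 13.7, 2.19, 16.9, 1.22, 2.56 and 79.4 CPM (log2 fold change −3.89, SE 1.16, adjusted p 0.0291), a call not kept without any single WT library or without Δ93 replicate 2, 3, 4 or 5 (adjusted p as high as 0.092). Hsd3b1 (log2 change −2.92, adjusted p 0.00159) and the luteinising hormone receptor gene Lhcgr (log2 change −2.64, adjusted p 0.00297) fell in all 6 libraries. Insl3, the Leydig hormone that guides testis descent, was at 6.28, 6.39 and 4.09 CPM and 0.0632 to 1.94 CPM with a median of 0.336 and was not called (log2 change −3.23, adjusted p 0.0813). Hsd3b6 was at 24.1, 16.6 and 22.3 CPM in WT and 97.5, 1.26, 4.16, 10.7, 2.88 and 3.44 CPM in Δ93. Only replicate 1 lay above WT, the others below, and the gene was not called (log2 change −0.08, adjusted p 0.971). Without replicate 1 it was called lower, at −2.18 (adjusted p 0.0362). Hsd3b1 and Hsd3b6 are closely similar family members, so reads may be split between them. In the fits that left out 1 library, 4 to 8 of the 8 were called, the fewest without WT replicate 1. Without Δ93 replicates 4 and 5, 7 were called. All 3 genes of adrenal-like steroidogenic cells of the fetal testis (Cyp21a1, Cyp11b1 and Mc2r) fell as well, and without WT replicate 1, 1 of them was called. Of these, Mc2r, the ACTH receptor gene, was at 5.7, 3.46 and 5.38 CPM and 0.796 to 1.84 CPM with a median of 1.08 (log2 fold change −2.07, SE 0.41, adjusted p 0.00293).

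Hedgehog signalling carries the DHH signal of Sertoli cells to Leydig and interstitial cells. Of 12 hedgehog genes, 5 were called lower and 0 higher, where 6.84% and 7.23% of all genes were. The ligand gene Dhh was at 62.8, 74.1 and 61 CPM in WT and 11.6, 0.442, 12.7, 0.796, 0.626 and 27.4 CPM in Δ93. Replicate 6 was again the highest and replicates 2, 4 and 5 the lowest, and the difference was not called (log2 fold change −2.89, SE 1.01, adjusted p 0.0613). The target genes Gli1, at 101, 80.9 and 87.2 CPM and 18.7, 3.58, 18.1, 6.13, 4.16 and 29.5 CPM, and Hhip, at 132, 109 and 81.4 CPM and 12.4, 3.1, 17.3, 1.33, 3.31 and 21.8 CPM, were lower in all 6 libraries, at log2 fold changes of −2.75 (adjusted p 0.0104) and −3.44 (adjusted p 0.00297). Ptch1, the DHH receptor and itself a target, was at 327, 316 and 279 CPM and 47 to 163 CPM with a median of 92.9 (log2 change −1.70, adjusted p 0.00278). For these 3 genes replicates 2, 4 and 5 were the lowest. In the fits that left out 1 library, 4 or 5 of the 5 were called.

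Interstitial progenitor genes fell by similar amounts in all 6 libraries. Of 9, 7 were called lower and 1 higher, where 6.84% and 7.23% of all genes were, with a median of −1.15. The list's median was −1.17, −1.21, −1.22, −1.10 and −1.03 log2 units in Δ93 replicates 1, 2, 4, 5 and 6 and −1.0 in replicate 3, a narrower range than that of the Sertoli list, though the 2 ranges were not compared by a test. Nr2f2, a nuclear receptor of the interstitium, was at 327, 266 and 277 CPM in WT and 138, 122, 144, 124, 134 and 141 CPM in Δ93 (log2 fold change −1.11, SE 0.25, adjusted p 0.00583). Tcf21 was at 224, 199 and 225.3 CPM and 51.1 to 89.2 CPM with a median of 71.1 (log2 fold change −1.63, SE 0.32, adjusted p 0.00285). Neither gene overlapped WT. Wnt5a, a WNT ligand of mesenchyme, fell too (log2 change −1.46, adjusted p 0.000937). Lhx2 rose, from 0.528, 0.855 and 1.03 CPM to 3.49 to 11.2 CPM with a median of 5.29 (log2 change 2.94, adjusted p 0.00542). Nr2f1 was called lower (adjusted p 0.0437), but the call was lost in all 9 fits that left out 1 library, with adjusted p as high as 0.31.

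Of 6 PDGF genes, 4 were called lower, where 6.84% of all genes were. Pdgfra, the receptor gene of interstitial cells, was at 552, 483 and 456 CPM in WT and 177 to 259 CPM with a median of 223 in Δ93 (log2 fold change −1.17, SE 0.21, adjusted p 0.00163), and the ligand gene Pdgfa at 60, 68.5 and 60.8 CPM and 29.3 to 39.5 CPM with a median of 31.8 (log2 fold change −0.91, SE 0.18, adjusted p 0.00322). Of 14 Notch genes, 5 were called lower and 0 higher, where 6.84% and 7.23% of all genes were. Jag1, a Notch ligand, was at 88.1, 57.7 and 56.9 CPM and 13.3, 8.11, 10.5, 12.5, 11.6 and 18.7 CPM (log2 fold change −2.44, SE 0.36, adjusted p 0.000645), and the target gene Heyl at 115, 106 and 115 CPM and 19.9, 21, 22, 22.2, 23.9 and 40.3 CPM (log2 fold change −2.17, SE 0.39, adjusted p 0.00163). All 6 libraries were below WT for these 4 genes. Without WT replicate 1, 3 of the 5 Notch genes were called. The target gene Hes1 overlapped WT and was not called (log2 change 0.15, adjusted p 0.707).

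Activins and inhibins are dimers of the products of Inha, Inhba and Inhbb, and follistatin binds activin. Of 9 genes of the list, 4 were called lower and 1, Fst, higher, where 6.84% and 7.23% of all genes were. The other 4 were not called, and the median change was −0.54. All 3 subunit genes fell while Fst rose. Inhba was at 51.4, 43.8 and 46.3 CPM in WT and 5.8, 2.76, 4.51, 6.26, 3.86 and 11.5 CPM in Δ93 (log2 fold change −3.03, SE 0.59, adjusted p 0.00271). Inha was at 189, 119 and 134 CPM and 15.6 to 42.4 CPM with a median of 33.1 (log2 fold change −2.22, SE 0.57, adjusted p 0.0135), a call not kept without WT replicate 1 (adjusted p 0.0697). Inhbb was at 263, 287 and 222 CPM and 57.3 to 147 CPM with a median of 77.3 (log2 fold change −1.46, SE 0.38, adjusted p 0.0137), a call not kept without WT replicate 1 or 2 (adjusted p as high as 0.06). For all 3 the groups did not overlap. Of 20 BMP genes, 19 were tested, 2 were called higher (Bmp2 and Bmpr1b) and 3 lower, among them Bmp4 and Bmp5. Over all genes 7.23% were called higher and 6.84% lower. Without any single WT library 2 of the 5 BMP genes were called. Bmp2 was called higher, as given for the pre-granulosa list.

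Germ-cell genes of meiosis were higher. Of 15 genes, 14 were called higher and 0 lower, where 7.23% of all genes were called higher, with a median of 3.45. Relative to the WT mean the list's median was 2.52, 4.27, 2.74, 5.48, 3.59 and 3.05 log2 units in Δ93 replicates 1 to 6 and −1.57, 0.53 and 0.41 in the WT libraries. Replicate 4 held the highest level of 14 of the 15 genes. Stra8, the retinoic acid-induced gatekeeper of meiosis, was at 0, 0.777 and 0.132 CPM in WT and 49.3, 219.6, 69, 324, 128 and 81.9 CPM in Δ93 (log2 fold change 8.78, SE 1.79, adjusted p 0.00342). Rec8, a meiotic cohesin gene, was at 2.86, 3.59 and 4.54 CPM and 70.7, 206, 96.8, 127, 133 and 90.1 CPM (log2 fold change 5.04, SE 0.81, adjusted p 0.000905). Each Δ93 library exceeded each WT library several times over for both genes. Later genes differed more among the Δ93 libraries. Sycp3, of the synaptonemal complex, was at 0.301, 1.44 and 2.22 CPM and 6.84, 37.9, 8.35, 141, 20.6 and 9.47 CPM (log2 change 4.82, adjusted p 0.0095, not called without WT replicate 1), and Dmc1, a recombinase gene, at 4.95, 4.45 and 4.04 CPM and 10.5, 31.5, 10.4, 117, 20.9 and 12.5 CPM (log2 change 2.92, adjusted p 0.00635). Replicate 4 stood above the rest for both. Prdm9, which places recombination sites, was at 3.14, 2.18 and 3.19 CPM in WT and 3.06, 15.3, 3.23, 107, 10.8 and 3.22 CPM in Δ93. Its call (log2 change 3.07, adjusted p 0.0413) was lost without Δ93 replicate 2 or 4 and without any WT library (adjusted p as high as 0.152), and in replicates 1, 3 and 6 it lay within or beside the WT range.

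The number of meiotic genes called was 7, 8 and 9 when WT replicate 1, 2 or 3 was left out, 9 when Δ93 replicate 4 was left out, and 12 to 14 without 1 of the other Δ93 libraries. Without Δ93 replicates 4 and 5 it was 8. Stra8, Rec8, Dmc1, Meioc (log2 change 5.17, adjusted p 0.00543), Mei1 (log2 change 6.43, adjusted p 0.00614) and Ythdc2 (log2 change 1.04, adjusted p 0.00248) were called in all 9 of those fits. The low germ-cell content of WT replicate 1 moved with these values, and its part in them was not tested. Without WT replicate 1 the change of Stra8 was 8.25 (adjusted p 0.0263).

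Genes that germ cells of both sexes express were not called. Of 8 pan-germ-cell genes, 0 were called by edgeR, and 0 had an unadjusted p under 0.05 and DESeq2 called 0. Dazl and Ddx4, whose levels are given above, had log2 fold changes of 1.41 (adjusted p 0.197) and 1.25 (adjusted p 0.198). Pluripotency genes that meiotic germ cells switch off varied inside Δ93. Pou5f1 was at 1.91, 67.8 and 75.5 CPM in WT and 50.5, 39, 56.8, 10.3, 18.1 and 72.8 CPM in Δ93, and Nanog at 0.854, 20.4 and 29 CPM and 23.2, 7.9, 18.2, 1.57, 4.64 and 29.5 CPM. Replicate 4, with the most Sycp3 and Dmc1, had the least of both. Of 10 male germ-cell genes, 9 were tested and 0 were called by edgeR, while 6 had an unadjusted p under 0.05 and DESeq2 called 1. Of the 9, 4 had a change above 0 and 5 below. Mael, of the piRNA pathway, was at 0.301, 15.5 and 19.1 CPM in WT and 40.3 to 159.9 CPM with a median of 51.2 in Δ93 and was the gene that DESeq2 called, as higher (log2 change 2.64, adjusted p 0.066 by edgeR, 2.66, adjusted p 0.0178 by DESeq2). Piwil4 (log2 change 1.58, adjusted p 0.267) did not overlap WT either, with Δ93 higher, and for none of the 9 did all Δ93 libraries lie below WT. Nanos2, the RNA-binding factor of male germ cells, had 0, 22 and 21 counts in WT and 0, 0, 0, 2, 0 and 2 in Δ93. The NODAL-pathway genes Nodal (log2 change −1.94, adjusted p 0.0964), Lefty1 (log2 change −2.46, adjusted p 0.116) and Lefty2 (log2 change −2.65, adjusted p 0.15) did not pass the test. Lefty2 was at 5.07, 51.8 and 65.1 CPM in WT and 10.2, 0.211, 2.97, 0.159, 0.125 and 25.4 CPM in Δ93, with replicate 6 the highest of the 6.

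Retinoic acid is made by ALDH1A enzymes and degraded by CYP26 enzymes. Of 16 genes 15 were tested, 3 were called lower (Aldh1a1, Cyp26b1 and Rara) and 2 higher (Aldh1a3 and Cyp26a1). Over all genes 6.84% were called lower and 7.23% higher. Of the 5 retinoic acid genes, 3 were called without WT replicate 2 or 3 or Δ93 replicate 3. Aldh1a1 was at 821, 893 and 811 CPM in WT and 163, 258, 273, 279.5, 242 and 387 CPM in Δ93 (log2 fold change −1.66, SE 0.33, adjusted p 0.00317), and Aldh1a2, the main enzyme of the mesonephros and gonad surface, at 149, 129.6 and 109.8 CPM and 129 to 166 CPM with a median of 146, not called (log2 change 0.19, adjusted p 0.439). Cyp26b1 fell, as given among the Sertoli genes. Cyp26a1 was called higher (adjusted p 0.00748) at a low level, 0.0502, 0.0388 and 0.0264 CPM in WT and 0.175 to 0.867 CPM with a median of 0.487 in Δ93.

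Basement membrane proteins wrap the testis cords. Of 20 of their genes, 10 were called lower and 0 higher, where 6.84% and 7.23% of all genes were, with a median of −1.03. Col4a1, a chain of type IV collagen, was at 2860.4, 2618 and 2316 CPM in WT and 597, 775, 880.5, 577, 846 and 1129 CPM in Δ93 (log2 fold change −1.70, SE 0.28, adjusted p 0.000992), and Nid1, which encodes nidogen, at 622, 509.9 and 461 CPM and 171 to 249.5 CPM with a median of 211 (log2 fold change −1.33, SE 0.22, adjusted p 0.00102). No Δ93 library reached WT for either gene. Col9a3 was at 518, 519 and 439 CPM and 66.8, 6.45, 126, 6.21, 6.14 and 211 CPM, with replicates 2, 4 and 5 lowest, and was not called (log2 change −2.80, adjusted p 0.0753). In the fits that left out 1 library, 6 to 10 of the 10 were called, the fewest without WT replicate 1. Of 14 endothelial genes, 4 were called lower and 0 higher, among them Vwf at 44.4, 35.3 and 32.6 CPM and 8.61 to 14 CPM with a median of 11.6 (log2 fold change −1.71, SE 0.32, adjusted p 0.00182) and Cdh5 at 210.5, 179.5 and 145 CPM and 70.2 to 110.1 CPM with a median of 90.7 (log2 fold change −0.98, SE 0.21, adjusted p 0.00532). Over all genes 6.84% were called lower. Without WT replicate 1, 2 of the 4 endothelial genes were called.

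Markers of the gonad surface and of other tissues were measured beside these groups, and their part in the results was not tested. Of 7 genes of the coelomic epithelium 3 were called higher (Upk3b, Krt19 and Krt18, adjusted p 0.0442, 0.0361 and 0.0334), and 0 of them were called without Δ93 replicates 4 and 5. Leaving out Δ93 replicate 2 or 4 or WT replicate 2 or 3 ended all 3 calls, and 1 was kept without WT replicate 1, at adjusted p as high as 0.157, 0.17 and 0.187 over the fits that left out 1 library. Summed over 12 erythroid genes the level was 17118, 15730.2 and 13857 CPM in WT and 55333, 9223, 6626, 59008, 7625 and 5389 CPM in Δ93 replicates 1 to 6, so replicates 1 and 4 exceeded all other libraries. By edgeR 0 of the 12 erythroid and 0 of the 13 macrophage genes were called, 0 of either had an unadjusted p under 0.05 and DESeq2 called 0 and 0. Summed over 11 mesonephric genes the level was 48, 38 and 59 CPM in WT and 49.3, 61.9, 56.1, 70, 64.1 and 51 CPM in Δ93, overlapping between groups. Within that list Wnt9b, a ligand of the mesonephric duct, was at 7.28, 0.253 and 0.923 CPM in WT and 0.0501 to 0.186 CPM with a median of 0.127 in Δ93 (log2 change −4.46, adjusted p 0.00952), and without WT replicate 1 it was not called (adjusted p 0.243). Of 39 HOX genes 34 were tested and 7 were called lower, where 6.84% of all genes were. Of these 7, 1 was called without WT replicate 1. That library had the highest Hoxa10, at 24 CPM against 1.5 and 5.2 CPM in WT replicates 2 and 3 and 1.04 to 2.26 CPM with a median of 1.68 in Δ93. Mitochondrially encoded transcripts summed to 11745, 8364 and 18445 CPM in WT and 25037, 23704, 29173, 29304, 26162 and 27301 CPM in Δ93. All 6 Δ93 libraries were above WT. Of the 13 genes 3 (mt-Co1, mt-Co3 and mt-Nd3) were called higher, where 7.23% of all genes were, and 0 without WT replicate 1 or 2.

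The remaining lists held few calls. Over all genes 7.23% were called higher and 6.84% lower. Of 22 genes of cholesterol metabolism, 4 were called lower, among them Sqle, Lss and Cyp51, where 6.84% of all genes were, and 0 without WT replicate 1 or 3, while the change was below 0 for 21 of the 22. Of 26 cell-cycle genes, Cdk1 and Aurkb, kinases of mitosis, were called lower and the inhibitor genes Cdkn1a and Cdkn1c higher, where 14.1% of all genes were called in either direction, and 0 of the 4 were called without WT replicate 2 or 3. Of 11 immediate-early and stress genes, Jun, Egr1, Hspa1a and Hspa1b were called lower, and 3 of them without WT replicate 1. Of 14 prostaglandin genes tested, Ptgds and the receptor gene Ptger4 were called lower and the receptor gene Ptger3 higher, and 1 of the 3 without any single WT library. Of 14 muscle genes tested, Acta2, Myl2 and Myl7 were called lower, and 1 of them without WT replicate 1 or 2.

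The lists whose counts without Δ93 replicates 4 and 5 are not given above were counted in the same way, where 3.77% of all genes were called higher and 5.13% lower. Among signalling genes, 1 FGF ligand and receptor gene was called higher and 7 lower, 2 BMP genes higher and 3 lower, 1 activin gene higher and 3 lower, 1 retinoic acid gene higher and 3 lower, and 5 hedgehog, 4 Notch and 3 PDGF genes lower. Among genes of cell types and structures, 1 interstitial progenitor gene was called higher and 6 lower, and 8 basement membrane, 4 endothelial, 2 adrenal-like, 7 HOX, 2 muscle and 1 mesonephric genes lower. The cell-cycle list, the cholesterol list and the genes around Fgf9 had 1 call each, lower, against 4, 4 and 3 with all libraries, and the Y-linked list had 1, lower. Immediate-early and stress genes had 4 calls, all lower, prostaglandin genes 1 higher and 1 lower, mitochondrially encoded genes 2 higher, and upstream regulators 3 higher. Among imprinted genes, described next, 4 were called higher and 6 lower, and among the genes around Mest 1 higher and 1 lower. The pan-germ-cell, male germ-cell, erythroid and macrophage lists had 0 calls.

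Imprinted genes are expressed from the copy of 1 parent. Of 62, 57 were tested, 7 were called higher and 6 lower, where 7.23% and 6.84% of all genes were. The median change was 0.07, against 0.06 over all genes tested. Without WT replicate 1, 6 of the 13 were called, and 9 without WT replicate 3. Mest (ENSMUSG00000051855, chromosome 6, 30723547 to 30748465, plus strand, GENCODE annotation of GRCm38), which encodes an enzyme of the hydrolase family and is expressed from the paternal copy, was at 925, 721 and 698 CPM in WT and 6.79, 3.56, 4.99, 2.41, 3.26 and 9.26 CPM in Δ93 replicates 1 to 6. In raw counts it had 36835, 37143 and 26466 in WT and 144, 169, 230, 91, 130 and 363 in Δ93. All 6 libraries were close to 0 and far below every WT library (log2 fold change −7.28, SE 0.33, adjusted p 1.15e-11). The call held in all 9 fits that left out 1 library, and without replicates 4 and 5 the change was −7.05 (adjusted p 1.60e-10). Mest was likewise lower than in Δ306 (−6.91), Δ104 (−6.81) and Δ225 (−6.85), each at an adjusted p of 2.49e-11 or less. Its lowest level in any library of those 3 groups was 386 CPM. Of all genes tested, 2 were called against WT and against all 3 other deletions, Mest and Gm56999.

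The bases before the start of Mest are shown because Mest was near 0 in the 6 Δ93 libraries and in no library of the other groups. The RefSeq promoter table lists 3 starts on the plus strand of chromosome 6 in GRCm38.p6, of which starts 2 and 3 lie 3 bases apart, so starts 1 and 2 are printed. Each line gives the 250 bases before a start, 5′ to 3′, with the dinucleotide CG, the target of DNA methylation, in capitals.
Mest start 1, chr6:30733256-30733505: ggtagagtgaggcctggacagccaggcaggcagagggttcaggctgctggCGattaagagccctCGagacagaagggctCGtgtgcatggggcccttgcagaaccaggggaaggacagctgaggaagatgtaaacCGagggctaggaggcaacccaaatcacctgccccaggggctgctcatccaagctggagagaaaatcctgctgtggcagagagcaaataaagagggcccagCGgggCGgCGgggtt
Mest start 2, chr6:30737800-30738049: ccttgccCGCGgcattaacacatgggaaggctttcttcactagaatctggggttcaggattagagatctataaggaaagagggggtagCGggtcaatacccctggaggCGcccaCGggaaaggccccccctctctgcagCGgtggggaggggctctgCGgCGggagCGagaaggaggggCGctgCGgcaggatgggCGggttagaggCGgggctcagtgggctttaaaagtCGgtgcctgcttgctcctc
Start 1 has 7 CG before it and start 2 has 14. The letters CG read the same on both strands and cannot overlap. Of 32851 windows of this length in the RefSeq promoter table, 46.3% hold at least 7 CG and 29.4% at least 14. The counts are per gene, so which start was used in WT was not measured, and DNA methylation was not measured in these libraries.

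The genes around Mest were taken as a list. Of 10 genes, Mest included, 3 were called higher, among them Copg2 and Mkln1, and 1, Mest, lower. Over all genes 7.23% were called higher and 6.84% lower. Without any single WT library or Δ93 replicate 2, 2 of these 4 genes around Mest were called. Copg2, whose gene end overlaps Mest on the opposite strand, was at 71.3, 86.4 and 96.5 CPM and 95.7 to 144 CPM with a median of 124 (log2 fold change 0.54, SE 0.16, adjusted p 0.0271), a call not kept without any single WT library or without Δ93 replicate 2 (adjusted p as high as 0.182). Whether reads were counted by strand for these libraries is not given in the sources used here, so reads of overlapping genes may be mixed. The annotation used here gives no position for Gm56999, so whether it lies near Mest was not tested.

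Other imprinted genes moved in both directions. Peg13, a paternally expressed RNA, was at 36.9, 5.36 and 31 CPM in WT and 0.141, 0.0843, 0.108, 0.292, 0.15 and 0.102 CPM in Δ93 (log2 fold change −7.36, SE 0.93, adjusted p 0.000279). It was also low in Δ225, at 0.0967 to 0.39 CPM (−0.13 for Δ93 minus Δ225, adjusted p 0.94), and in 1 library of Δ306, whose range was 0.219 to 23.9 CPM. In Δ104 Peg13 was at 1.61 to 31 CPM. H19, a maternally expressed RNA, was at 1245, 9.21 and 1586 CPM in WT and 14.9 to 40.8 CPM with a median of 24.3 in Δ93. WT replicate 2 lay below all 6 Δ93 libraries, so the groups overlapped, and the call (log2 change −5.23, adjusted p 0.0199) was lost without WT replicate 1 or 3 (adjusted p as high as 0.0652).

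Of the imprinted genes tested, 11 lie on chromosome 7 from H19 to the distal end, a stretch chosen after its values were seen. Of these, 4 were called higher, 1, H19, lower, and 6 were not called, where 7.23% of all genes were called higher and 6.84% lower. Phlda2, a growth-limiting gene known from placenta, was at 0.0754, 0.311 and 0.264 CPM in WT and 13.3, 19, 19.3, 5.04, 10.2 and 7.48 CPM in Δ93 (log2 fold change 5.79, SE 1.32, adjusted p 0.00642). Slc22a18 was at 0.452, 0.311 and 0.185 CPM and 1.84 to 6.13 CPM with a median of 4.05 (log2 change 3.67, adjusted p 0.00653), the potassium channel gene Kcnq1 at 1.0, 0.777 and 0.87 CPM and 4.9 to 12.8 CPM with a median of 10.2 (log2 change 3.43, adjusted p 0.00241), and the cell-cycle inhibitor gene Cdkn1c at 109, 94.5 and 104.9 CPM and 242 to 334 CPM with a median of 295 (log2 change 1.49, adjusted p 0.0171). In all 4 the 6 Δ93 libraries lay above the 3 WT libraries. Cdkn1c was not called without any single WT library (adjusted p as high as 0.0784), nor without Δ93 replicates 4 and 5 (adjusted p 0.0682). Grb10 (log2 change −0.80, adjusted p 0.0161) and Gnas (log2 change −0.72, adjusted p 0.0076) fell, and both calls were lost without WT replicate 1 (adjusted p 0.076 and 0.051).

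**Figure D5:**
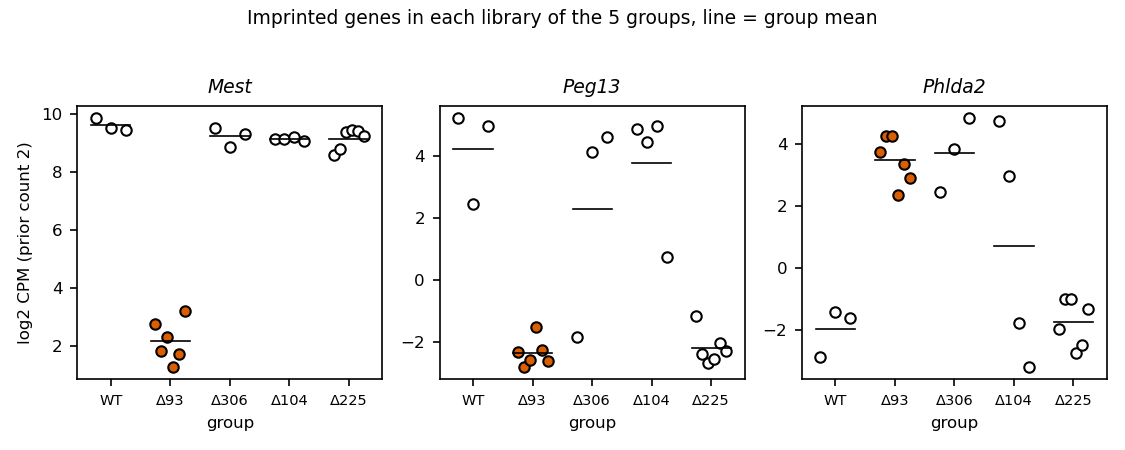
Log2 CPM (prior count 2, vertical axes) of Mest, Peg13 and Phlda2 in each library of WT and the 4 deletions, with a line at each group's mean. Mest is low in the 6 Δ93 libraries (orange) and in no other library. Peg13 is low in Δ93, in Δ225 and in 1 library of Δ306. It is also below the other libraries of its group in Δ104 replicate 4 (0.74) and WT replicate 2 (2.44). Phlda2 is above WT in Δ93, in Δ306 and in part of Δ104.

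Outside the lists, the genes with the largest changes and no overlap between groups were of several kinds. Among the 10 largest increases, several are germ-cell genes. Tex101, a surface protein of germ cells, was at 0.0251, 0.874 and 0.791 CPM in WT and 6.79, 59.3, 8.74, 240.4, 29.1 and 13 CPM in Δ93 (log2 change 6.70, adjusted p 0.0108, not called without WT replicate 1), and Dmrtb1, a factor at the entry into meiosis, had 0, 1 and 0 counts in WT and 0.66 to 3.54 CPM with a median of 1.56 in Δ93. Replicate 4 was highest for Tex101 and replicate 2 for Dmrtb1. Spata22, a meiotic recombination gene, was at 0.0943, 1.18, 0.195, 7.85, 0.752 and 0.128 CPM in Δ93 with 1 count in the 3 WT libraries together. The intestinal factors Isx and Cdx2 were present in all 6 Δ93 libraries and almost absent from WT. Isx was at 6.04, 10.6, 8.93, 9.26, 12.1 and 4.82 CPM in Δ93 with 3 counts in the 3 WT libraries together, and Cdx2 at 6.08, 13, 7.98, 2.31, 4.74 and 5.89 CPM with 5 counts. Prap1 was at 0.802, 0.358, 0.13, 156, 0.251 and 0.153 CPM in Δ93, so that its change (log2 change 8.81, adjusted p 0.0264) rested on replicate 4. Without that replicate its adjusted p was 0.121, and it was not called without any single WT library either. The rest of the 10 were Lypd4, Akr1c18, 1700013H16Rik and Gm14692.

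Among the 10 largest decreases, Cbln1, a secreted synaptic organiser, was at 214, 257 and 229 CPM in WT and 13.1, 5.27, 12.6, 3.34, 4.64 and 27.2 CPM in Δ93 (log2 fold change −4.41, SE 0.68, adjusted p 0.000703). Crhr1, a receptor for corticotropin-releasing hormone, was at 25.9, 16 and 17.7 CPM and 0.802, 0.358, 0.846, 0, 0.226 and 3.96 CPM (log2 change −4.26, adjusted p 0.0102). Prokr2, a prokineticin receptor, was at 53.9, 62.8 and 60.8 CPM and 3.49, 0.99, 4.08, 0.478, 0.977 and 9.9 CPM (log2 change −4.16, adjusted p 0.00327). These 3 had the library order of the Sertoli genes, with replicate 6 highest and replicates 2, 4 and 5 lowest. Serpina5, a protease inhibitor, was at 6.68, 3.54 and 4.64 CPM and 0 to 0.383 CPM with a median of 0.0342 (log2 change −5.83, adjusted p 0.00163). Gm56999 was at 4.87, 3.36 and 3.43 CPM in WT and 0.236, 0.147, 0.108, 0.133, 0.10 and 0.102 CPM in Δ93, low in all 6 libraries (log2 fold change −4.83, SE 0.32, adjusted p 8.93e-09). The others were Ctrb1, Mal, Serpina3b, Hcrtr1 and Miox. Of these 20 genes, 16 were called in all 9 fits that left out 1 library.

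Against the other deletions, comparisons that share the Δ93 libraries, Δ93 differed from Δ306 at 18 genes (0.0785% of those tested), from Δ104 at 12 (0.0523%) and from Δ225 at 4767 (20.8%). These groups hold 3, 4 and 6 libraries, so few calls do not show likeness. The median of Δ93 minus Δ104 was −1.39 for Sertoli, −2.22 for Leydig and 1.87 for meiotic genes. For Δ93 minus Δ306 these medians were −0.31, 0.74 and 1.54. Of the 540 genes tested that belong to the lists or to the 20 genes above, 4 were called against Δ306, 4 against Δ104 and 222 against Δ225. The count against Δ104 rose to 45 without Δ93 replicate 1 and 17 without Δ93 replicate 6. Against Δ306 these were Mest, Peg13, Gm56999 and the muscle gene Myl2, all lower in Δ93. Against Δ104 they were Mest, Peg13, Gm56999 and Wnt5a, all lower in Δ93. Higher in Δ93 than in Δ225 were 12 of 12 pre-granulosa, 13 of 23 WNT and 10 of 15 meiotic genes, and lower were 10 of 20 Sertoli, 9 of 12 Leydig and 8 of 15 FGF-ERK genes. Sox9 was at 75.7 to 128 CPM in Δ225 and Foxl2 at 0.339 to 7.19 CPM. In Δ306 and Δ104 the 2 genes spanned wide ranges, Sox9 11.2 to 64 and 11.6 to 116 CPM and Foxl2 36.5 to 85.7 and 1.22 to 77 CPM.

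In the authors' deposited table for the same comparison, which gives WT over Δ93 and is turned here to Δ93 over WT, 2587 genes were higher and 1938 lower in Δ93 at an adjusted p under 0.05. Of the genes called here, 3219 were called there in the same direction, 99.7% of the calls here and 71.1% of those in the authors' deposited table. Both come from the same libraries, so this overlap is not independent evidence. DESeq2 run here gave 4525 calls, 2587 of them higher. Sox9 and Amh, not called here, had adjusted p of 0.0443 and 0.0346 in the authors' deposited table.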

How the data were processed

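Messenger RNA of dissected gonads was sequenced, and the authors deposited a table of counts per gene for WT and 4 Fgf9 deletions. The submitters' processing notes name STAR, DESeq2 and mm10 for the Δ93 libraries, and STAR 2.7.10a, featureCounts, Subread, DESeq2 and mm10 for WT. The counting tool for the Δ93 libraries, the annotation release and the strand setting are not given in the sources used here. The authors' deposited comparison tables give log2 fold changes and adjusted p-values from DESeq2, per the file headers. They are quoted only where named.

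Counts were analysed with edgeR 4.0.16 in R 4.3.3 (filterByExpr by group, TMM, quasi-likelihood test). All 22 libraries of the 5 groups were fitted together (17 residual degrees of freedom, 22941 genes tested), with Benjamini-Hochberg adjustment over all genes and a threshold of 0.05. CPM use TMM-scaled library sizes, and log2 CPM in figures and medians use a prior count of 2. DESeq2 1.42.0 was an alternative, as were other normalizations and filters, the 9 libraries alone, a replicate block and leaving out each library. Leaving out Δ93 replicates 4 and 5 was added after seeing the data. The script was tested on simulated data.

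Gene names came from the reference annotation for 51880 of 57186 genes and from the authors' table for 5306. There are 36 lists with 546 distinct members, of which 520 were tested and 178 called. Outside the lists, the 10 largest increases and 10 largest decreases were named among called genes with a mean of at least 1 CPM and no overlap between groups. From the lists, the text names called genes with large changes and genes central to the list. Some list members are counted but not reported here by name. The members and lists were chosen with earlier results of these data known. Promoter sequences are from RefSeq (GRCm38.p6).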

Additional observations from a re-analysis of the deposited data

Results flagged for a closer look

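In each measure below, 1 of the 6 Δ93 libraries lay far from the other 5 relative to the whole range (Dixon's criterion at the 95% level), which chance does in about 1 in 20 groups. In all, 212 such measures were examined, so about 1 in 20 of these are expected to be flagged by chance alone. The values below were not told apart from such cases. The cause of these values was not tested.

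Replicate 6 was the highest of the 6 for 5 genes that were lower in Δ93. Mro was at 29.6 CPM there, the Notch target Heyl at 40.3 CPM, Serpina5 at 0.383 CPM, and the adrenal-like genes Cyp21a1 and Cyp11b1 at 0.434 and 0.204 CPM. Reads of Cyp21a1 may be shared with its pseudogene. The median of the 3 adrenal-like genes was likewise highest in replicate 6, at −1.63 log2 units from the WT mean. Replicate 6 was also the lowest of the 6 for Bmp2, at 26.1 CPM.

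Replicate 4 was the highest for Prap1 (156 CPM), the steroid dehydrogenase gene Akr1c18 (13.3 CPM) and Ift88 (33.6 CPM). Replicate 1 was the lowest for Wnt6 (127 CPM) and had the lowest total count, 20641724. The median over all genes tested was highest in replicate 1, at 0.08 log2 units from the WT mean.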

How the results depend on the processing

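The 174 named genes were refitted under up to 17 alternatives each. Of 2948 values, 2622 kept their direction and their side of the threshold, 279 lost the call, 25 gained one and 22 changed sign, none of the 22 for a gene that was called. Without Δ93 replicates 4 and 5, 32 of the named genes lost the call. The number of genes called was 1234 at an adjusted p under 0.01 and 1980 without Δ93 replicates 4 and 5, and it ranged from 1486 to 3572 over the fits that left out 1 library. Called genes whose libraries did not overlap numbered 1224, 1866 and 1320 to 2932 under the same alternatives. Called list members numbered 91 at an adjusted p under 0.01 and 102 to 187 over the fits that left out 1 library. The cause of these shifts was not tested. With WT replicate 2 left out 40.8% of calls were higher in Δ93, and 51.4% with all libraries. Named genes called against Δ306 numbered 16 by DESeq2, and against Δ104 57 by DESeq2 and 3 to 45 over the fits that left out 1 library. The depth limits genes with a few counts in WT, such as Isx, Spata22 and Dmrtb1, whose fitted fold changes depend on the prior count and were not printed.

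Some uncalled genes changed sign. Without Δ93 replicates 4 and 5 the log2 fold changes were 0.022 for Dmrt1, −0.041 for Hes1, 0.30 for Hsd3b6, 0.20 for Nanog, 0.14 for Pou5f1 and −0.16 for Wnt6. Over the fits that left out 1 library they ranged from −0.52 to 0.015 for Dmrt1, from −2.18 to 0.16 for Hsd3b6, from −0.80 to 0.42 for Nanog, from −0.79 to 0.25 for Pou5f1 and from −0.082 to 0.21 for Wnt6.

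Same-numbered WT and Δ93 libraries did not deviate from their group means together (r of −0.05 to 0.04 over 3 pairs), and 1 of the 3 WT libraries correlated best with its own number, so the numbers were not taken to pair the samples. With the replicate number as a block 3346 genes were called, 44.9% of them higher, and 2496 of the 3229 calls were kept. Under the block Hes1 was −0.093 and Wnt6 −0.49, and of the 174 named genes 14 lost the call and 6 gained one.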
